A study of Mus musculus with 10 samples.

Results

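The transcription regulators that mark the layers of the cerebral cortex were followed through 10 RNA-seq libraries of embryonic mouse brain. The members were 9 genes listed by name, with no threshold on measured values: Tbr1, Bcl11b, Fezf2, Foxp2, Tle4 and Sox5, which mark deep layers (6 genes), and Cux1, Cux2 and Rorb, which mark upper layers (3 genes). They are 9 of 28059 gene identifiers in the files, of which 24998 carried a symbol and 18671 had enough counts to be tested. All 9 were among those tested. The brains were taken at E18.5, without the olfactory bulbs, from 5 genotypes with 2 libraries each. Control brains were heterozygous for COP1, a ubiquitin ligase component that marks cJun and ETS factors of the ETV1 family for degradation. Knockout brains lacked COP1 alone (KO), COP1 and cJun (DKO), COP1, cJun and ETV1 (TKO), or COP1, cJun, ETV1 and ETV5 (QKO). All 4 mutant groups therefore lack COP1, and the control group is not wild type. The Cre driver or germline origin of the deletions, the strain, the sex and the litter of the embryos were not given in the sources used here. Nothing says that the 2 libraries of a genotype came from separate litters, so p-values measure the spread between these libraries, which may in part be technical.

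Cortical projection neurons are born in sequence, deep layers first and upper layers later, and their identities are held apart by factors that repress one another. Fezf2 and Bcl11b (also called Ctip2) drive neurons that project below the cortex, Tbr1 and its partners drive neurons that project to the thalamus, and Sox5 sets the timing at which deep-layer subtypes appear. Cux1 and Cux2 are homeodomain factors of the upper layers that shape dendrites and synapses, and Rorb is a nuclear receptor of the layer that receives thalamic input. Tle4 is a Groucho-family co-repressor that binds no DNA by itself and marks corticothalamic neurons, as does Foxp2, a forkhead repressor. Several of the 9 are also made outside the cortex: Bcl11b and Foxp2 in striatal neurons, Foxp2 and Rorb in the thalamus, and Sox5 in glial precursors. In RNA from a whole brain, fewer cells of a type and less RNA per cell cannot be told apart.

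Promoter sequence is shown because cJun forms part of AP-1 and the ETV proteins are ETS factors. ETS sites centre on a core often written CCGGAAG. For AP-1 the letters searched were TGANTCA, where N is any base. The usual AP-1 site has C or G at N, so these letters are looser than that site. RefSeq windows of 300 bases (250 before and 50 after an annotated start, build GRCm38.p6) were matched by symbol for 8 of the 9 members, Foxp2 being the one without an entry, and 3 members had a second start, so 11 windows were searched on both strands. The AP-1 letters occurred in 2 of the 11 windows, 1 each for Fezf2 and Rorb, against 7.81% of 32851 windows of all genes. The ETS letters occurred in 0 of the 11, against 8.86% of all windows. With 0 ETS matches, no overlap between the 2 sets of letters could arise. The 250 bases before the start are given below for the 2 windows with a match and, for comparison, for the first start of Cux2, the member with the smallest p in any comparison. Each is written on its own strand, the minus strand in every case, and capitals mark the AP-1 letters. They begin 121 bases before the Fezf2 start and 230 bases before the second Rorb start. At N the Fezf2 match holds A and the Rorb match holds T, so neither is the usual AP-1 site.
Fezf2, chr14:12345866-12346115: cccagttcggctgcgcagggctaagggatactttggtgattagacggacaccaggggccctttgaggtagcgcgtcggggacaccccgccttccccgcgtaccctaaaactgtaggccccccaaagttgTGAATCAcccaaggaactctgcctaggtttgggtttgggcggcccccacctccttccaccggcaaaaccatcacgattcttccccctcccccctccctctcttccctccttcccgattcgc
Rorb, second start, chr19:19001118-19001367: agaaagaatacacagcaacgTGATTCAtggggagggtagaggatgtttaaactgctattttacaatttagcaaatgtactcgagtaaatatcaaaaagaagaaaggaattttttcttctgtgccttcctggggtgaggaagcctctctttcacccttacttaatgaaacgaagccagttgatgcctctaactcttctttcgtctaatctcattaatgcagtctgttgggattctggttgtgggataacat
Cux2, first start, chr5:122049852-122050101: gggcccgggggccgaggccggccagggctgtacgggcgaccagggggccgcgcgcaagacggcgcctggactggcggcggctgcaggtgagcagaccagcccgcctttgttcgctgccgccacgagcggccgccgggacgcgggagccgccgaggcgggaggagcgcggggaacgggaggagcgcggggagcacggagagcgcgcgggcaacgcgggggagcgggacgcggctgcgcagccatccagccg
The Cux2 stretch holds neither set of letters and is rich in G and C, with 80.3% over its whole window against a median of 52.7% over all windows. A match is a run of letters and not evidence of binding, and no binding was measured here.

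Library totals lay between 31996944 and 54594523 counts. Xist RNA, made from an inactive X, was high in control 1 and DKO 1 (1460 CPM or more, where CPM is a count scaled by library size) and at most 1.95 CPM in the other 8 libraries. Jun was at 15 and 15 nRPKM in controls, at 16.1 and 15.3 in KO and between 1.44 and 2.94 in DKO, TKO and QKO, where nRPKM is the authors' length- and depth-scaled read count. Cop1, Etv1 and Etv5 kept counts in the genotypes meant to lack them (Etv1 3.67 to 4.71 nRPKM in TKO and QKO, against 4.82 and 4.95 in controls). The deleted exons were not given in the sources used here, so these counts do not check those labels, and TKO and QKO stand below for the libraries so labelled. HOX genes, which are made in the caudal hindbrain and spinal cord and not in cortex, differed between libraries, and 6 of the 12 tested were called lower in KO than in control by edgeR. The summed level of the 13 listed was 13.5 to 18.9 nRPKM in controls, 0.737 to 1.76 in KO, 1.89 to 3.72 in DKO, 6.19 to 8.2 in TKO and 2.22 to 13.8 in QKO, with 3 of the 13 at 0 counts in a KO library. Their part in the results below was not tested, beyond a fit that takes the HOX level as a covariate. That fit also holds a mean for each genotype, so the HOX effect rests on gaps between the 2 libraries of a genotype. The widest gap was in QKO, with a mean log2 CPM of -0.2 and -2.97 relative to controls. KO stood at -3.07 and -4.09, far from the controls at -0.27 and 0.27. Values from this fit extend such gaps to differences between genotypes, wherever they are given below.

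All 9 layer regulators were present in every library, with between 445 counts (Rorb, QKO 2) and 17930 counts (Bcl11b, KO 1). Averaged over the 10 libraries, Bcl11b stood highest at 35.4 ± 2.55 nRPKM (SD, n = 10), then Tbr1 at 31.6 ± 2.95, Tle4 at 27.1 ± 1.46 and Cux1 at 22.7 ± 0.723. Foxp2 followed at 18.6 ± 1.1, Cux2 at 17.3 ± 1.6, Fezf2 at 14 ± 1.17 and Sox5 at 13.4 ± 0.946, and Rorb was lowest at 3.57 ± 0.562. Bcl11b and Tbr1 overlapped over the libraries, as did Tbr1 and Tle4, Foxp2 and Cux2, Cux2 and Fezf2, and Fezf2 and Sox5. Tle4 did not overlap with Cux1, nor Cux1 with Foxp2, nor Sox5 with Rorb. In the order of group means the first 4 places and the last were the same in each of the 5 genotypes, while Foxp2, Cux2, Fezf2 and Sox5 exchanged places. Cux2 was the fifth of the 9 in KO, the seventh in DKO and the sixth in control, TKO and QKO. The highest library exceeded the lowest by 1.09-fold for Cux1, the steadiest member, and by 1.53-fold for Rorb, the most variable. Rorb also had the fewest counts, and counting error alone gives it a coefficient of variation of 3.34 to 4.74% per library, against 0.747 to 1.04% for Bcl11b. The 2 overlapping genes on these loci, Sox5os3 and Mir721, had at most 1 count in any library.

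**Figure D1:**
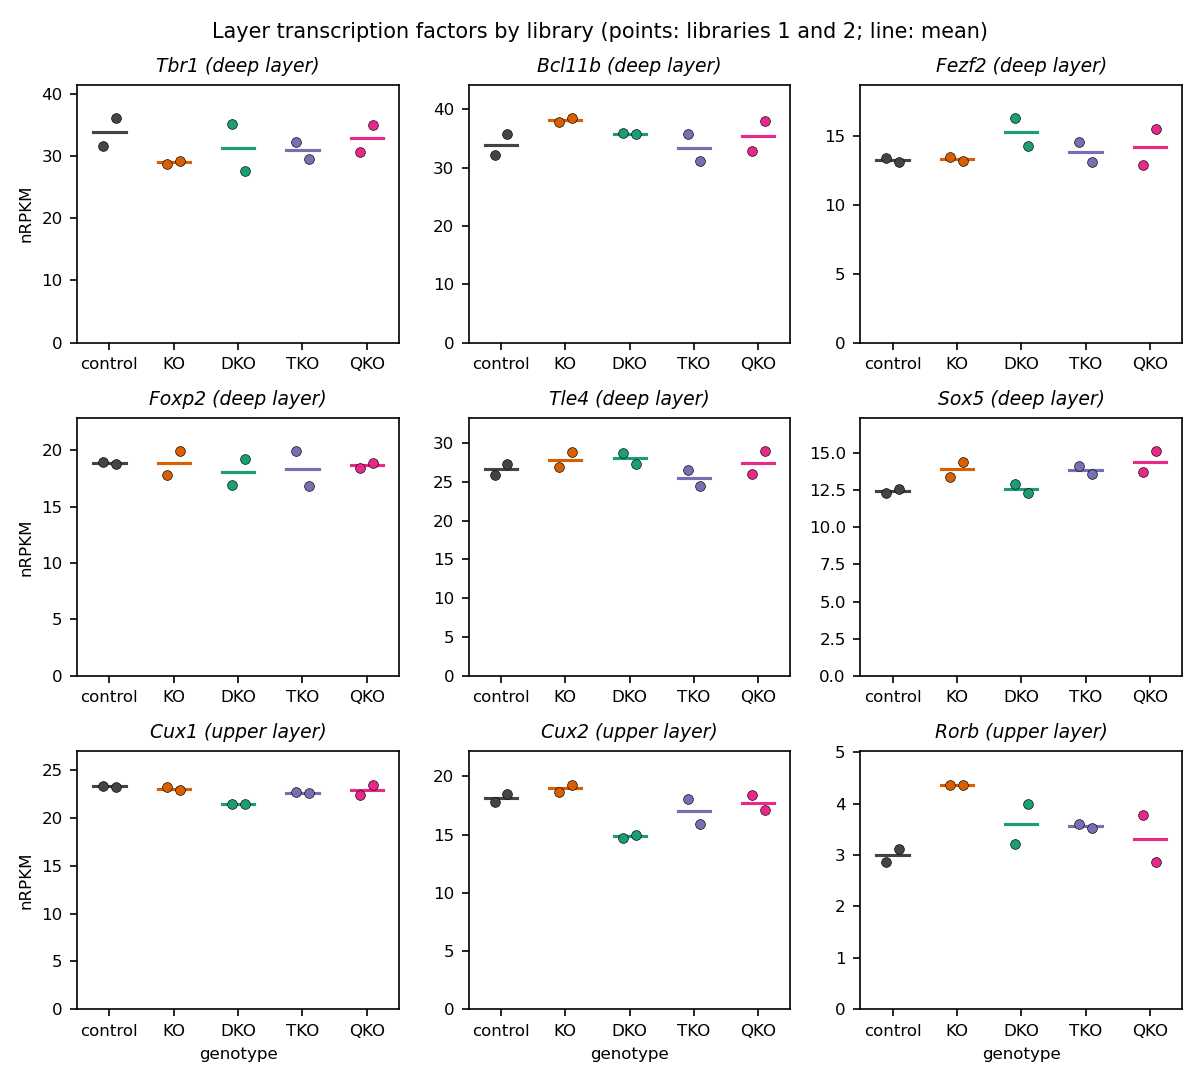
Level of each of the 9 regulators in nRPKM (vertical axis, from 0) by genotype (horizontal axis). Points are libraries 1 and 2 of a genotype and lines their means: Cux2 is lowest in the 2 DKO libraries (14.7 and 15 nRPKM), Rorb is highest in the 2 KO libraries (both 4.37), and Cux1 varies least (1.09-fold from the lowest to the highest library).

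No member passed the test in any comparison. Counts were tested with edgeR's quasi-likelihood test over all 18671 genes, and a gene was called at a Benjamini-Hochberg adjusted p under 0.05. In KO vs control edgeR called 0 of the 9, with 2 (Rorb and Sox5) at an unadjusted p under 0.05, while the second tool, DESeq2, called 1 (Rorb). The background was 0.734% of all genes called by edgeR, 10.4% at an unadjusted p under 0.05 and 1.32% called by DESeq2. Throughout, DESeq2 shares are of the genes to which it gave an adjusted p, between 17658 (DKO vs KO) and 23913 (QKO vs control). Their base thus differs from that of the edgeR shares. In DKO vs KO edgeR called 0 of 9, with 2 (Cux2 and Sox5) at an unadjusted p under 0.05, while DESeq2 called 1 (Cux2), against 0.568%, 13.8% and 1.29% of all genes. In TKO vs DKO edgeR and DESeq2 each called 0 of 9 and 1 had an unadjusted p under 0.05 (Cux2), against 0.0911% of all genes called by edgeR, 0.377% by DESeq2 and 11.9% at the unadjusted p. In QKO vs TKO both tools called 0 of 9 and 0 had an unadjusted p under 0.05, against 0.289%, 0.489% and 5.78%. Against control, edgeR called 0 of 9 in DKO (0.423% of all genes), TKO (0.15%) and QKO (0.236%) and DESeq2 called 0 of 9 in each (0.723%, 0.457% and 0.381% of all genes), with 2, 1 and 1 members at an unadjusted p under 0.05 (backgrounds 8.14%, 10.3% and 6.89%). Of all 63 member comparisons, 9 had an unadjusted p under 0.05. A test of any difference among the 5 genotypes by edgeR called 0 of 9 (1.25% of all genes), with 3 at an unadjusted p under 0.05 (12.8% of all genes): Cux2 (adjusted p = 0.124), Rorb (adjusted p = 0.265) and Sox5 (adjusted p = 0.29). DESeq2's likelihood ratio test called 1 of 9, Cux2 (adjusted p = 0.0204), against 3.11% of all genes. These comparisons share control and mutant libraries and are not independent of one another.

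Rorb, the upper-layer nuclear receptor, stood highest in the COP1 knockout. Its level was 2.87 and 3.11 nRPKM in control, 4.37 and 4.37 in KO, 3.21 and 4 in DKO, 3.61 and 3.52 in TKO and 3.77 and 2.86 in QKO. Both KO libraries lay above the other 8, DKO and TKO lay above both controls, and the QKO libraries spanned the control range. The KO vs control difference was 0.56 ± 0.13 on the log2 scale (SE), a 1.47-fold higher level with a 95% interval of 1.2 to 1.81, and it missed the threshold in edgeR (adjusted p = 0.113). DESeq2 gave 0.55 with an adjusted p of 0.03, and edgeR without a filter on low counts gave an adjusted p of 0.0174. With the HOX level as a covariate the difference was 1.08 (edgeR adjusted p = 0.0383), in a fit that rests on gaps within genotypes, widest in QKO. Without control 1 the edgeR adjusted p was 0.676, without control 2 0.367, without KO 1 0.457, without KO 2 0.441, and with both high-Xist libraries left out 0.458, with differences between 0.49 and 0.61. The DKO vs KO difference was not called either, at -0.29 ± 0.13 (edgeR adjusted p = 0.364). That difference was -0.12 without DKO 1, -0.44 without DKO 2, -0.13 with both high-Xist libraries left out, -0.42 with the HOX covariate (edgeR adjusted p = 0.0608) and 0.02 with the level of cortical excitatory neuron genes as a covariate. DKO vs control was 0.27 ± 0.14 (edgeR adjusted p = 0.67) and QKO vs control 0.15 ± 0.14 (edgeR adjusted p = 0.913). Without DKO 2 the DKO vs control value was 0.11, and with the HOX covariate it was 0.66. Without QKO 1 the QKO vs control value was -0.06, without QKO 2 it was 0.34, and with the HOX covariate it was 0.37, none of these called.

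Cux2, a homeodomain factor of upper-layer neurons and their progenitors, stood lowest where cJun was deleted with COP1 and both ETV genes remained. Its level was 17.8 and 18.46 nRPKM in control, 18.7 and 19.3 in KO, 14.7 and 15 in DKO, 18.1 and 15.9 in TKO and 18.4 and 17.1 in QKO. The 2 DKO libraries were the lowest of the 10 and the 2 KO libraries the highest. DKO was below KO by a log2 difference of -0.36 ± 0.07, or 0.78-fold with a 95% interval of 0.701 to 0.867, just short of the threshold in edgeR (adjusted p = 0.0517). DESeq2 called this difference (-0.35, adjusted p = 0.00385), as did edgeR without a filter (adjusted p = 0.00988) and with the HOX covariate (adjusted p = 0.0216). Leaving out 1 of the 4 libraries gave edgeR adjusted p-values between 0.11 and 0.44, and leaving out those with high Xist gave 0.406. Against control the DKO difference was -0.28 ± 0.07 (0.822-fold, edgeR adjusted p = 0.19, between 0.0672 and 0.803 over the alternatives), and it was -0.18 with the HOX covariate. From DKO to TKO the difference was 0.2 ± 0.07 (edgeR adjusted p = 0.351, a value of 0.1 without TKO 1), and QKO vs control was -0.03 ± 0.07. In the same DKO libraries 4 of 6 red blood cell genes were called higher than in KO by edgeR, with a summed level of 631 to 756 nRPKM against 220 to 267 in KO and 275 to 339 in control, none at 0. In TKO it was 332 to 342 and in QKO 343 to 440. Their part in the Cux2 difference was not tested.

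Cux1, the paralog of Cux2, had the narrowest range of the 9 members. Its level was 23.4 and 23.3 nRPKM in control, 23.2 and 22.9 in KO, 21.5 and 21.5 in DKO, 22.7 and 22.6 in TKO and 22.4 and 23.5 in QKO. The DKO libraries were again the lowest of the 10. DKO vs control was -0.12 ± 0.05 (edgeR adjusted p = 0.626), and the 95% intervals of its 4 differences from control lay between -0.23 and 0.11. Over the 10 libraries Cux1 and Cux2 had a Pearson r of 0.78 in log2 CPM, given as a description because the libraries share their genotypes.

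Tbr1, the T-box factor of corticothalamic neurons, was the one deep-layer gene whose KO libraries both lay below the controls. Its level was 31.6 and 36.1 nRPKM in control, 28.8 and 29.2 in KO, 35.1 and 27.6 in DKO, 32.3 and 29.6 in TKO and 30.7 and 35 in QKO. The DKO libraries were the second highest and the lowest of the 10, a gap of 0.35 on the log2 scale and the widest within a genotype among the deep members. The KO vs control difference was -0.21 ± 0.11 (0.864-fold, 95% interval 0.731 to 1.02, edgeR adjusted p = 0.533), smaller than that gap. It was -0.31 without control 1, -0.12 without control 2, -0.44 with the HOX covariate and -0.09 with the cortical excitatory covariate, and none of these was called. Across the 10 libraries Tbr1 and Rorb ran opposite to each other (Pearson r of -0.77, a description). The other deep members did not share this: r with Rorb was -0.33 for Fezf2, 0.03 for Tle4, 0.15 for Sox5, 0.16 for Foxp2 and 0.34 for Bcl11b. The highest r of any member pair was 0.86, for Bcl11b and Tle4.

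Fezf2, which directs neurons to subcerebral targets, was highest on average in DKO. Its level was 13.4 and 13.1 nRPKM in control, 13.5 and 13.2 in KO, 16.3 and 14.3 in DKO, 14.6 and 13.1 in TKO and 12.9 and 15.5 in QKO. KO vs control was 0.02 ± 0.1, and DKO vs control was 0.22 ± 0.1 (1.16-fold, edgeR adjusted p = 0.612). The QKO libraries included the lowest and the second highest of the 10. The DKO vs control value was 0.12 without DKO 1, 0.31 without DKO 2, 0.14 with both high-Xist libraries left out, -0.01 with the HOX covariate and 0.1 with the cortical excitatory covariate, and none of these was called.

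Bcl11b, the zinc-finger partner of Fezf2 in subcerebral neurons and a gene of striatal neurons, was highest in KO. Its level was 32.1 and 35.7 nRPKM in control, 37.9 and 38.5 in KO, 35.9 and 35.7 in DKO, 35.7 and 31.2 in TKO and 32.9 and 38 in QKO. The KO libraries lay above both controls and 1 QKO library lay between them. The KO vs control difference was 0.18 ± 0.09 (1.14-fold, edgeR adjusted p = 0.5), about the gap between the 2 controls (0.15). It was 0.1 without control 1 or with both high-Xist libraries left out and 0.03 with the HOX covariate. It was 0.25 without control 2 and 0.24 with the cortical excitatory covariate, and none of these was called. Of 11 striatal genes edgeR called 2 lower in KO, the neuropeptide precursors Tac1 (-0.52 ± 0.09, adjusted p = 0.0254) and Penk (-0.49 ± 0.08, adjusted p = 0.0289), and 0 higher. The summed level of the 11 was 109 to 115 nRPKM in control, 93.7 to 96.3 in KO, 101 to 102 in DKO, 103 to 105 in TKO and 105 to 110 in QKO, none at 0. Their part in the values of Bcl11b and Foxp2 was not tested.

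Sox5, a factor without an activation domain that times deep-layer development, was lowest in control and DKO. Its level was 12.3 and 12.6 nRPKM in control, 13.4 and 14.4 in KO, 12.9 and 12.3 in DKO, 14.1 and 13.6 in TKO and 13.7 and 15.1 in QKO. KO, TKO and QKO libraries all lay above both controls, and DKO overlapped with them. The differences from control were 0.17 ± 0.06 in KO (edgeR adjusted p = 0.363), 0.16 ± 0.06 in TKO (adjusted p = 0.439), 0.22 ± 0.06 in QKO (1.16-fold, adjusted p = 0.439) and 0.02 ± 0.06 in DKO (adjusted p = 0.962), all by edgeR. With the HOX covariate the differences were -0.01 in KO, 0.11 in TKO and 0.13 in QKO, and without QKO 2 the QKO value was 0.15, none of these called. Over its alternatives the adjusted p in QKO lay between 0.122 and 1.

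Tle4 and Foxp2, both of corticothalamic neurons, showed the smallest differences of the deep members. Tle4 stood at 25.9 and 27.3 nRPKM in control, 26.9 and 28.8 in KO, 28.7 and 27.3 in DKO, 26.5 and 24.4 in TKO and 26 and 28.9 in QKO. Control and KO overlapped, and no Tle4 difference from control exceeded 0.08 in size. Foxp2 stood at 19 and 18.8 nRPKM in control, 17.8 and 19.9 in KO, 16.9 and 19.2 in DKO, 19.9 and 16.8 in TKO and 18.4 and 18.9 in QKO. Its 5 group means spanned 0.07 on the log2 scale, less than the gap between the 2 libraries of KO, DKO or TKO. Foxp2 had the largest adjusted p of the 9 for any difference among genotypes (edgeR adjusted p = 0.966).

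Intervals of the edgeR fit without covariates give a range for the changes from control, each for 1 gene and without adjustment for the number of genes. For the 8 members other than Rorb, the 95% intervals of all differences from control lay within 0.731-fold and 1.35-fold. For Rorb they reached 1.81-fold. This range does not cover the alternative fits or comparisons between mutants, where the interval of Cux2 in DKO vs KO reached 0.701-fold. A p above the threshold does not show that a level was equal. Groups that do not overlap were common among all genes with 2 libraries each. KO and control did not overlap for 5 of the 9 members (49.3% of all genes), DKO and KO for 6 (46.9%), TKO and DKO for 4 (42.1%), and QKO and TKO for 0 (27.9%). Against control, DKO did not overlap for 6 (38.6%), TKO for 3 (47.5%) and QKO for 1 (34.9%). The median log2 difference of the 9 was 0.08 in KO vs control (all genes 0.01), -0.1 in DKO vs KO (all genes 0), 0.02 in DKO vs control, -0.03 in TKO vs control and 0.05 in QKO vs control (all genes 0 in each).

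**Figure D2:**
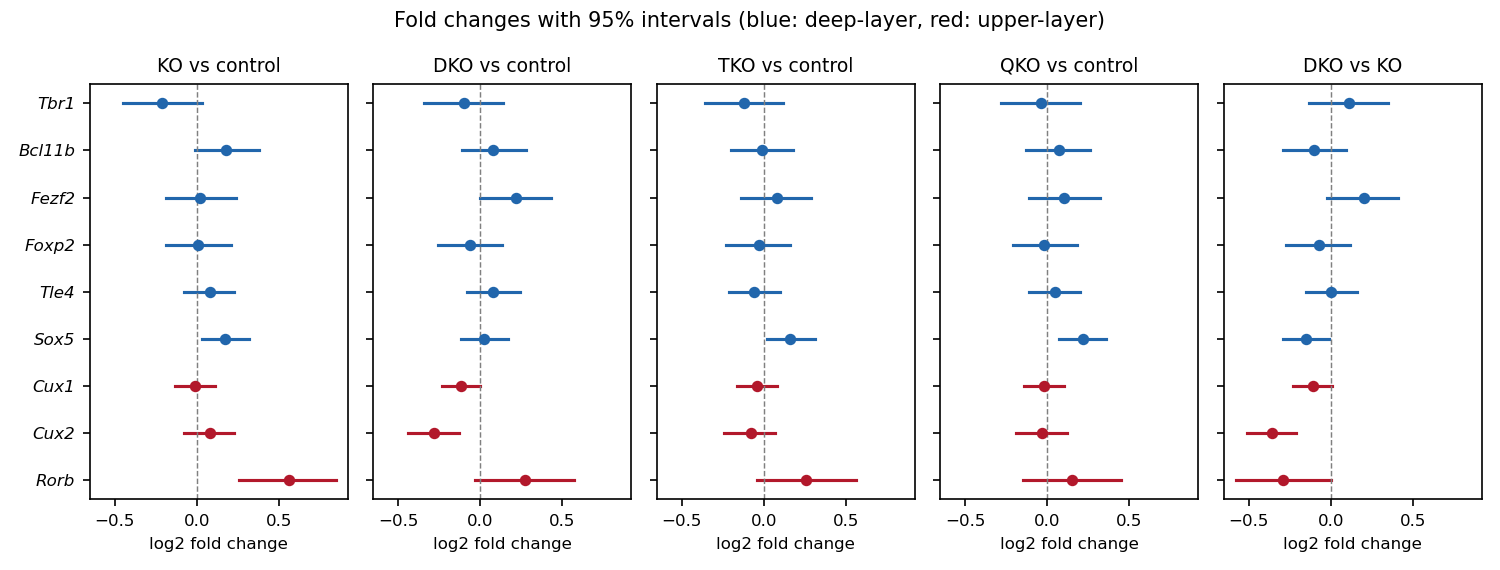
Log2 fold change of each regulator (horizontal axis) in 5 comparisons (panels), with deep-layer genes in blue and upper-layer genes in red. Points are edgeR estimates and bars 95% intervals without adjustment for the number of genes: the interval of Rorb in KO vs control (0.26 to 0.85) and that of Cux2 in DKO vs KO (-0.51 to -0.21) lie farthest from 0, and neither passed the adjusted threshold.

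Deep and upper members were then set against each other within each library, as a description without a test. Each member's log2 CPM was taken relative to its control mean and averaged over the 6 deep or the 3 upper genes. The upper average was 0.21 in both KO libraries while the deep average was 0.01 and 0.07. This rested on Rorb: without it, upper minus deep was 0.02 and -0.03 in the KO libraries. In DKO upper minus deep was -0.18 and 0.02 with all members and -0.29 and -0.18 without Rorb, the reverse order, with Cux2 and Cux1 as the upper genes. TKO gave 0.01 and 0.08, and QKO gave 0.12 and -0.19, opposite signs in 2 libraries of 1 genotype. Without Rorb, TKO gave -0.09 and -0.04 and QKO gave 0 and -0.18, so upper below deep was then not confined to DKO. In summed nRPKM, the ratio of upper to deep genes ran from 0.27 in DKO 1 to 0.335 in KO 1, with controls at 0.328 and 0.313. Beside these values, genes of cortical excitatory neurons in general (7 genes, among them Emx1, Neurod2, Neurod6, Slc17a7, Bhlhe22 and Sla, none at 0) averaged -0.05 and -0.14 in KO, 0.2 and 0.02 in DKO, -0.05 and -0.04 in TKO and -0.07 and 0.13 in QKO. Their summed level was 300 to 301 nRPKM in control, 267 to 276 in KO, 300 to 334 in DKO, 289 to 290 in TKO and 293 to 338 in QKO. Cux2 was lower in DKO than in KO, and the average of these genes was higher. With them as a covariate, chosen after seeing the data, the Cux2 difference was -0.29 (edgeR adjusted p = 0.273). That fit also holds a mean for each genotype, so it rests on gaps within genotypes, such as 0.2 and 0.02 in DKO. The same limit holds for every value given with this covariate. Beyond this fit, the part of these genes in the Cux2 difference was not tested.

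**Figure D3:**
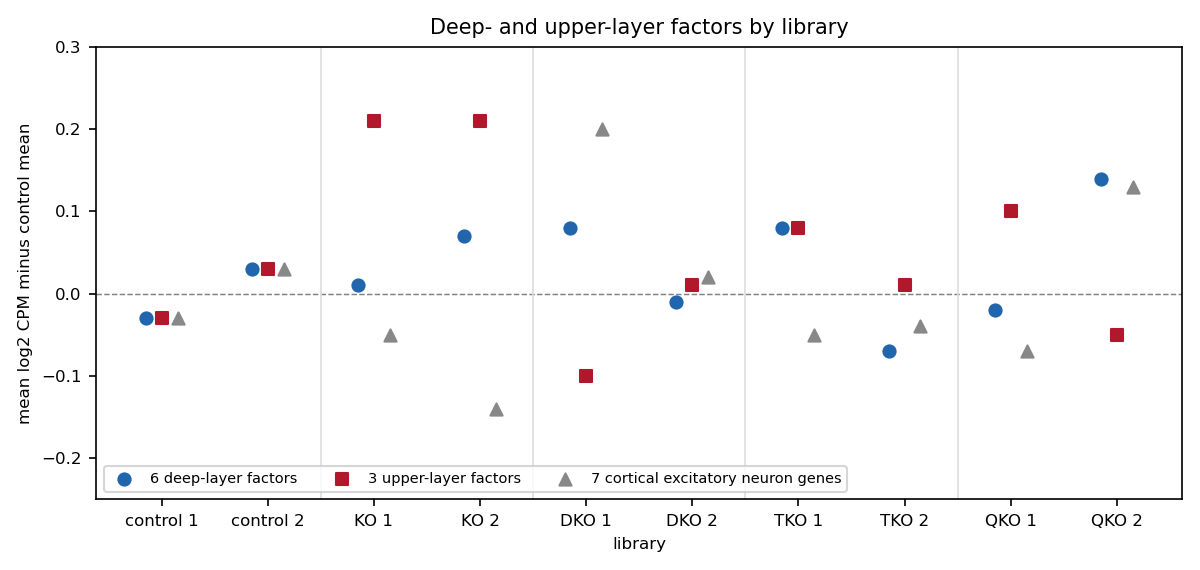
Mean log2 CPM relative to the control mean (vertical axis) in each of the 10 libraries (horizontal axis) for the 6 deep-layer factors (circles), the 3 upper-layer factors (squares) and 7 genes of cortical excitatory neurons (triangles). The squares stand above the circles in both KO libraries (0.21 against 0.01 and 0.07), below them in DKO 1 and QKO 2, and above them again in QKO 1 and TKO 2.

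Few other markers of the layers were called, but few genes of any kind were. In KO vs control edgeR called 0.734% of all genes and DESeq2 1.32%, and in DKO vs KO 0.568% and 1.29%. A count of 0 in a short list therefore says little about the layers. Before adjustment, p was below 0.05 for 10.4% of all genes in KO vs control and 13.8% in DKO vs KO. Whether any list here or in the next paragraphs departed from these shares was not tested. Of 10 further deep-layer genes, edgeR called 0 and DESeq2 0 in KO vs control (4 at an unadjusted p under 0.05, median -0.11), with Crym, a thyroid hormone binding protein, at -0.25 ± 0.1 (edgeR adjusted p = 0.403) and Syt6, a synaptotagmin, at 0.23 ± 0.07 (edgeR adjusted p = 0.271). Of 10 further upper-layer genes both tools called 0 (2 at an unadjusted p under 0.05, median -0.01). The axon guidance receptor Plxnd1 stood at 0.25 ± 0.06 (edgeR adjusted p = 0.125) and Inhba, an activin subunit, at 0.35 ± 0.13 (edgeR adjusted p = 0.366). Of 7 subplate genes edgeR called 0 (4 at an unadjusted p under 0.05), while DESeq2 called 1, the neurexophilin Nxph4, lower in KO (-0.37 ± 0.09, DESeq2 adjusted p = 0.0309). It read 17.5 and 16.5 nRPKM in control against 13.1 and 13 in KO. The 4 were 2 lower and 2 higher, the higher ones being the nuclear receptor Nr4a2 (0.25 ± 0.07, edgeR adjusted p = 0.176) and the complexin Cplx3 (0.94 ± 0.4, edgeR adjusted p = 0.446). Cplx3 was near the floor, at 0.208 and 0.155 nRPKM in control and 0.452 and 0.227 in KO. Of 6 Cajal-Retzius genes both tools called 0 in KO vs control (1 at an unadjusted p under 0.05), with Ebf2 at -0.35 ± 0.1 (edgeR adjusted p = 0.213). In DKO vs KO, edgeR called 0 of the further deep, further upper, subplate and Cajal-Retzius genes (3, 0, 2 and 2 at an unadjusted p under 0.05), while DESeq2 called 1, the calcium-binding protein Calb2, higher in DKO (0.29 ± 0.07, DESeq2 adjusted p = 0.0439).

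Regulators and reported targets of the members were examined next. Of 13 regulators of layer fate edgeR called 0 and DESeq2 0 in KO vs control, also 0 at an unadjusted p under 0.05. The zinc-finger factor Zbtb20 was at 0.47 ± 0.22 (edgeR adjusted p = 0.5). In DKO vs KO edgeR called 0 of the 13 (2 at an unadjusted p under 0.05), while DESeq2 called 1, the nuclear factor Nfia, lower at -0.37 ± 0.1 (DESeq2 adjusted p = 0.0358). Of 10 genes described as downstream of Tbr1, Foxp2, Fezf2 or their partners both tools called 0 in KO vs control (1 at an unadjusted p under 0.05, median -0.07) and in DKO vs KO (5 at an unadjusted p under 0.05, median -0.2). Grin2b, an NMDA receptor subunit regulated by Tbr1, stood at 0.37 ± 0.14 in KO vs control (edgeR adjusted p = 0.366). Reln, the secreted glycoprotein reelin, stood at -0.62 ± 0.21 in DKO vs KO (edgeR adjusted p = 0.26), with 17.6 and 26.4 nRPKM in DKO against 29.5 and 37.9 in KO. Of the 7 cortical excitatory genes edgeR called 0 in either comparison (1 at an unadjusted p under 0.05 in KO vs control, 5 in DKO vs KO, all 5 higher). DESeq2 called Neurod6, a bHLH factor of postmitotic excitatory neurons, lower in KO (-0.33 ± 0.09, DESeq2 adjusted p = 0.0121) and higher in DKO than in KO (0.36 ± 0.09, DESeq2 adjusted p = 0.00449).

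Among 12 relatives of the members, 2 were called by edgeR in KO vs control. Sox6, the SoxD relative of Sox5 and a gene of progenitors, interneurons and oligodendrocyte precursors, rose from 6.83 and 6.93 nRPKM in control to 9.46 and 9.36 in KO, by 0.46 ± 0.06 (edgeR adjusted p = 0.00533). It fell by 0.51 from KO to DKO, where it read 6.68 and 6.6 (edgeR adjusted p = 0.00177), and it was the 1 relative called there. The KO vs control call was lost with the HOX covariate (0.54, edgeR adjusted p = 0.0591). Fits with 1 library in a group left out control 1, control 2, KO 1, KO 2 or both high-Xist libraries. They gave values of 0.44 to 0.46, and the call was lost in all of them except without KO 2. It held with DESeq2 (adjusted p = 4.53e-06) and in edgeR without a filter on low counts (adjusted p = 0.000294). It also held in edgeR with DESeq2's scaling of libraries (adjusted p = 0.00603) and with the cortical excitatory covariate (adjusted p = 0.00199). The DKO vs KO call held in each of 10 alternatives (edgeR or DESeq2 adjusted p between 1.37e-07 and 0.0491). In KO, 5 of 6 oligodendrocyte precursor genes and 6 of 7 astrocyte and radial glia genes were called higher by edgeR (Gfap 3.98-fold), with summed levels of 153 to 180 and 928 to 958 nRPKM against 77.4 to 89.8 and 891 to 941 in control, none at 0. The seventh glial gene, Fabp7, a lipid-binding protein of radial glia, was lower in KO (-0.3 ± 0.08, edgeR adjusted p = 0.128, called by DESeq2 at 0.00592). At 655 and 612 nRPKM in control and 523 and 497 in KO it made up most of the glial sum, which therefore shows little of the rise of the other 6. In DKO these sums were 112 to 126 and 829 to 839, in TKO 106 to 117 and 831 to 903, and in QKO 70.3 to 79.8 and 823 to 859. Their part in the values of Sox5, Sox6 and Rorb was not tested.

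Eomes (Tbr2), the relative of Tbr1 in intermediate progenitors, fell in KO by 0.76 (SE 0.15, edgeR adjusted p = 0.0472), from 7.64 and 8.4 nRPKM to 4.21 and 5.24. That call was lost without any 1 of the 4 libraries (edgeR adjusted p of 0.18 without control 1, 0.277 without control 2, 0.398 without KO 1 and 0.101 without KO 2), with values of -0.93 to -0.61. It was also lost with both high-Xist libraries left out (-0.83) and with the HOX covariate (-1.09, edgeR adjusted p = 0.0851). Each fit that left out libraries had 1 library in a group. The call held with DESeq2 (-0.77, adjusted p = 5.22e-05) and in edgeR without a filter on low counts (-0.76, adjusted p = 0.000606). It also held in edgeR with DESeq2's scaling of libraries (-0.77, adjusted p = 0.046) and with the cortical excitatory covariate (-0.77, adjusted p = 0.0376). Of 6 intermediate progenitor genes edgeR called 2 lower in KO, Eomes and the bHLH factor Neurod1 (-0.33 ± 0.07, edgeR adjusted p = 0.0472), and DESeq2 also called Neurog2 (-0.58 ± 0.15, DESeq2 adjusted p = 0.0408). Whether Eomes and Tbr1 differed in their response was not tested. Bcl11a, Foxp1, Foxp4, Rora, Tle1 and Tle3 differed from control by at most 0.15 in size in KO, and none of them was called.

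**Figure D4:**
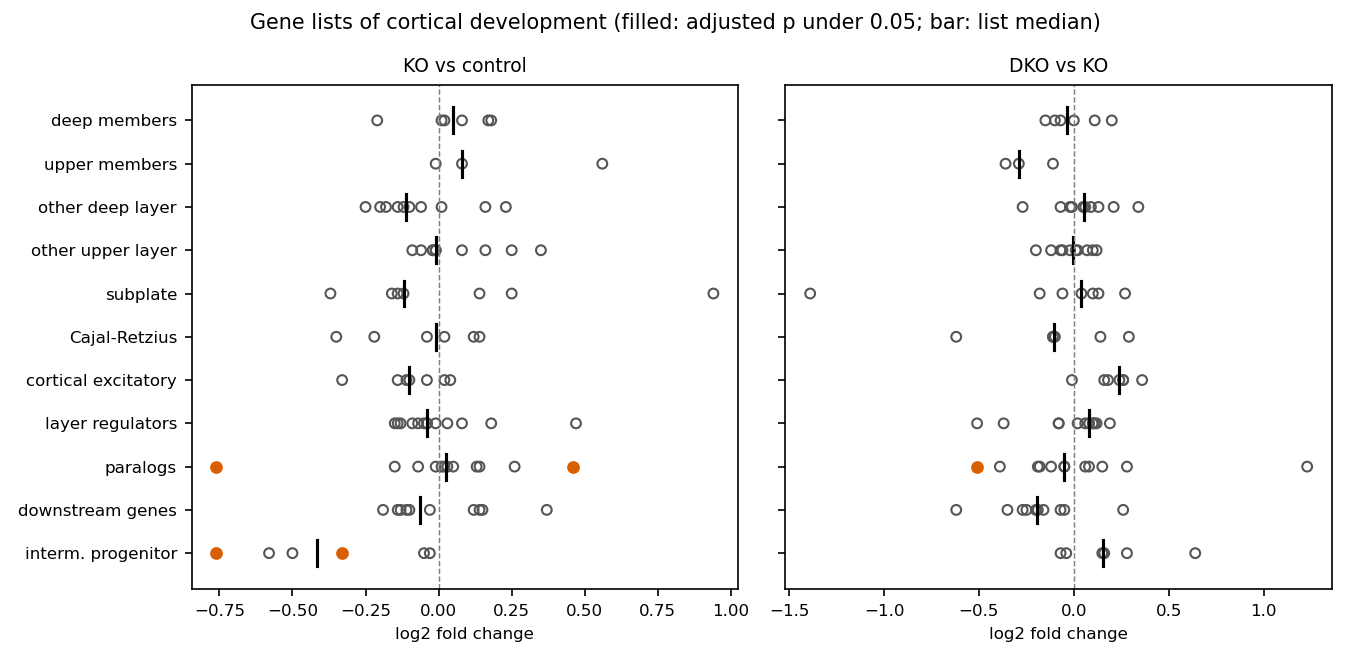
Log2 fold change (horizontal axis) of each gene of 11 lists (rows) in KO vs control and DKO vs KO (panels, with separate scales). Open circles did not pass and filled circles passed edgeR's adjusted p of 0.05, and bars are list medians: every circle of the members, the other layer markers and the layer regulators is open, and the filled ones are Eomes, Neurod1 and Sox6.

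ETV1 marks corticofugal neurons of the deep layers as well as being one of the deleted genes, and edgeR called it in KO and DKO against control. Etv1 read 4.82 and 4.95 nRPKM in control and 1.76 and 2.29 in KO, a fall of 1.27 ± 0.11 in log2 units (edgeR adjusted p = 0.000455). In DKO it read 1.98 and 2.11, a difference of -1.26 ± 0.11 from control (edgeR adjusted p = 0.000919). The other mutants, labelled as lacking ETV1, did not share this fall, with 3.8 and 3.67 nRPKM in TKO and 4.71 and 4.38 in QKO. TKO vs DKO was called (0.88 ± 0.12, edgeR adjusted p = 0.0159). Against control, TKO (-0.38 ± 0.11, edgeR adjusted p = 0.306) and QKO (-0.11 ± 0.11, edgeR adjusted p = 0.353) were not called. The difference between Etv1 and the members was not itself tested.

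For 7 of the members the 2 named genes of the 17087 searched whose log2 CPM followed them most closely over the 10 libraries are given, and for Sox5 and Rorb 1 of these 2, as a description, since the libraries share genotypes and depth. They were Pgrmc2 and Zfp41 for Tbr1 (Pearson r of 0.927 and 0.925), Rnf216 and Elavl3 for Bcl11b (0.928 and 0.927), Bcl10 and Coasy for Fezf2 (0.968 and 0.929), and Ckap5 and Rnf24 for Foxp2 (0.954 and 0.946). They were Ercc8 and Rnf216 for Tle4 (0.933 and 0.925), Gtf3c5 for Sox5 (0.926), Nle1 and Lgi2 for Cux1 (0.972 and 0.917), Scrib and Timeless for Cux2 (0.964 and 0.959), and Cog7 for Rorb (0.958). No member was among the closest 2 genes of another member, and Rnf216 was given for both Bcl11b and Tle4.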

How the data were processed

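Polyadenylated RNA of 10 brains' libraries was read as paired ends of 75 bases. GSNAP aligned the reads and the genome build was NCBIM37, per the submitters' processing notes. Per the file headers, each deposited count gives uniquely aligned reads on a gene model, and the authors' nRPKM is RPKM adjusted by a size factor per library, per the file headers. Annotation release and strand handling were not given in the sources used here. Symbols came from RefSeq (GRCm38.p6) by Entrez identifier (24998 of 28059). Counts were tested in edgeR 4.0.16 (R 4.3.3) with its quasi-likelihood test, 5 group means over all 10 libraries, TMM, filterByExpr (9388 identifiers set aside), and Benjamini-Hochberg adjustment over 18671 genes, and DESeq2 1.42.0 served as an alternative. Scripts were tested on simulated data. Log2 CPM used a prior count of 2. Errors of log2 differences derive from the F statistic, intervals from its degrees of freedom. Replicate libraries differed beyond sampling noise (chi-square per degree of freedom 7.51 to 19.5 over genes with at least 20 counts), so none was counted as a duplicate. Library numbers follow accession order and pair nothing. From each list, called genes and up to 3 uncalled ones with the largest difference from control in KO or DKO were named, together with Nr4a2, Calb2, Nfia and relatives of the members chosen after their values were seen. Some items that the rule names are not reported here. Members and lists were chosen with earlier results of these data known.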

Additional observations from a re-analysis of the deposited data

How the results depend on the processing

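Of 630 member values under alternatives, 6 passed the threshold: Rorb in KO vs control without a filter on low counts (0.55), with DESeq2 (0.55) and with the HOX covariate (1.08), and Cux2 in DKO vs KO under the same settings (-0.35, -0.35 and -0.39). Another 84, none called, changed sign, the largest of them at most 0.29 in size as reported. Genes called, in the order KO, DKO, TKO and QKO vs control, then QKO vs TKO, TKO vs DKO, DKO vs KO and any difference, were 137, 79, 28, 44, 54, 17, 106 and 234 as reported, 300, 225, 145, 122, 160, 159, 336 and 862 without a filter, and 239, 138, 85, 91, 98, 81, 228 and 639 with DESeq2. Leaving out 1 library gave 23 to 44, 27 to 70, 13 to 18, 16 to 69, 25 to 80, 7 to 44, 42 to 122 and 128 to 429, the lone library left in a group being assumed to vary like the other groups. Without the 2 libraries with high Xist the counts were 61 (TKO vs DKO), 63 (DKO vs KO), 35 (DKO vs control) and 40 (KO vs control). With the HOX covariate they were 424 (DKO vs KO), 30 (DKO vs control) and 130 (TKO vs control). With the cortical excitatory covariate, chosen after seeing the data, they were 230 (KO vs control), 49 (DKO vs KO), 189 (QKO vs control), 133 (DKO vs control), 126 (TKO vs control) and 608 (any difference). The causes were not tested. Leaving out 1 member moved upper minus deep from -0.01 (without Rorb) to 0.27 (without Cux1) in KO (0.17 with all 9), from -0.24 (without Rorb) to 0.04 (without Cux2) in DKO (-0.08), and from -0.06 (without Rorb) to 0.11 (without Cux2) in TKO (0.04). No paired analysis was possible because the labels number no replicates. Precision was limited by 2 libraries per genotype. Rorb had the fewest counts of the 9 members (445 to 897 per library), and how far this set its precision was not tested.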
